A study of Mus musculus with 20 samples.

Results

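The transporters described here are 56 genes whose symbols on the array begin with Slc1a, Slc3a, Slc6a, Slc7a, Slc36a, Slc38a or Slc43a, out of 27962 symbols. They were chosen by symbol and not by their values. Each was represented by the probe with the highest mean log2 processed intensity over 20 arrays, chosen from 96 probes because 26 of the genes had several. The 48 whose probe was detected, that is flagged well above background, on all arrays of some group were tested. The 8 others, among them Slc1a7, Slc7a12 and Slc7a13, were not tested. Slc7a6os entered through its prefix, although it lies opposite Slc7a6 and encodes no carrier.

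The mice were adult C57bl6/J females of 10 weeks or more, all ovariectomized and then rested for 10 to 14 days, so every group lacked ovarian estrogen. Each received 1 subcutaneous injection of 100 µl in sesame oil, with no compound (vehicle), 250 ng estradiol (E2), 750 µg bisphenol A (BPA) or 750 µg HPTE, the bis-hydroxyphenyl trichloroethane that is formed from the pesticide methoxychlor. Uteri were taken after 2 h or 24 h, and 500 ng of RNA was labelled with Cy3 for a 1-colour array. There were 3 arrays per group, except 2 for E2 at 24 h (replicates 2 and 3). The 3 vehicle arrays carry 24 h titles and served both times, so all contrasts with vehicle share them. The labels give 1 uterus per array, whereas the study's methods describe RNA of pooled uteri, so the p-values measure the spread between these samples. Whole uterus mixes epithelium, stroma, muscle, vessels and leukocytes, and more cells of a type cannot be told apart from more RNA per cell.

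Amino acid carriers move amino acids across the plasma or lysosomal membrane, by exchange or coupled to sodium, chloride or protons. Members of family 7 that act as light chains pair with 1 of the heavy chains of family 3, which carries them to the membrane, and the leucine that enters through such pairs is one of the signals read by the growth kinase complex mTORC1. The uterus of an ovariectomized mouse answers E2 with early changes in transcription and fluid uptake, followed by growth and division of its epithelium.

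Levels are log2 processed intensity minus the 75th percentile of the array, so that 0 marks that percentile, and changes are differences of group mean levels on this log2 scale. Levels were not compared between genes. Called means an adjusted p under 0.05 from limma, adjusted over the 32456 probes tested. Of the 48 tested transporters, 42 were well above background on all 20 arrays, and Slc1a2 passed the filter through the vehicle group alone. Marker genes of epithelium, stroma, myometrium and endothelium were well above background in every group. Transcripts of pancreas acinar cells (21 markers, Ela2 never above background) summed to 4946 and 302 times the 75th percentile on E2 2 h replicates 2 and 3, to 8.61 and 22.9 at E2 24 h and to at most 1.06 elsewhere. Sperm cell transcripts (18 markers) summed to between 41.1 and 138 in vehicle and to between 1.67 and 17.7 in the treated groups. Their part in the changes was not tested, and they are given again where they move with a member.

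Sequences upstream of 5 transporters are shown because 4 of them were higher at 2 h and the last holds a pair of matches to the core of the ATF4 element, the site of an amino acid stress response. They are the 250 bases before a start site in RefSeq's table for GRCm38.p6, 5′ to 3′ on the strand of the gene. Capitals mark GGGCGG (the Sp1 box) on either strand in the first 4, and TGATGNAA on either strand in Slc7a11.
Slc7a6, chr8:106168604-106168853, plus strand: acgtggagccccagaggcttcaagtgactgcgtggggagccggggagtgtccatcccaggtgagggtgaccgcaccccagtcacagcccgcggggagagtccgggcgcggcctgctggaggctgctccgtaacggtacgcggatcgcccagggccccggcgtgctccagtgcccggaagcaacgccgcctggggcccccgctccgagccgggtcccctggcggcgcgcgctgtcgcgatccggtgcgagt
Slc6a13, chr6:121300038-121300287, plus strand: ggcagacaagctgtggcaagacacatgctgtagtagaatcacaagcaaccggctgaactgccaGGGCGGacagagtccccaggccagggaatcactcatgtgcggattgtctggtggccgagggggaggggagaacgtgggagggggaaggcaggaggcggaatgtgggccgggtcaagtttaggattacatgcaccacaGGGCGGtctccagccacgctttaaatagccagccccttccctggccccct
Slc43a2, chr11:75531444-75531693, plus strand: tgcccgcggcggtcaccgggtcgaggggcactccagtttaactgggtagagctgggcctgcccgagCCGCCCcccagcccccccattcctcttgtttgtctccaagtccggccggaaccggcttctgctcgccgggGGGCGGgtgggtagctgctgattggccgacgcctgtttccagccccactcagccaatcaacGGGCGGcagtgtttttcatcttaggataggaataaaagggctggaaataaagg
Slc3a2, chr19:8713898-8714147, minus strand: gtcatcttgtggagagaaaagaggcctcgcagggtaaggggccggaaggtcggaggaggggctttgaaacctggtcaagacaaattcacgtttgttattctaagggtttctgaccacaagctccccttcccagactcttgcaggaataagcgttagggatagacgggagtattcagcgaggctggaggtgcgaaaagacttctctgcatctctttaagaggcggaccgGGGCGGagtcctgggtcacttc
Slc7a11, chr3:50443614-50443863, minus strand: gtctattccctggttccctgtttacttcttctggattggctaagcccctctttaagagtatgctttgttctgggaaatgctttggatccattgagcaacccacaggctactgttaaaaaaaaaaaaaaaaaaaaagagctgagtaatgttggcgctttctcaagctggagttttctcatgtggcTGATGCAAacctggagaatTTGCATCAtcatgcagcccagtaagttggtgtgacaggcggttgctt
These windows hold 0, 2, 3 and 1 matches to GGGCGG and 2 to TGATGNAA, in that order. Slc7a6 has 2 start sites, and GGGCGG lies at -57 from the other start and at 10 from the one printed. Over windows of 300 bases that also take in 50 bases after the start, GGGCGG was present in 35.7% of all 32851 windows and in 31 of the 58 windows (53.4%) of the 37 transporters with an entry, a gene having a window for each start site. TGATGNAA was present in 3.97% of all windows and in 4 of the 58 (of Slc1a4, Slc7a11 and Slc7a7), TGANTCA (AP-1) in 7.81% and in 7, and CACGTG (the E-box) in 7.15% and in 8. The palindromic consensus estrogen response element was present in 0.07% of all windows and in 0 of the 58. Each motif was searched on both strands, and no motif contains another in full. A match describes these letters and is not evidence of binding. Slc7a5 and Slc6a2 are named only.

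At 2 h a set of carriers was called under every compound, each set against the same vehicle arrays. Slc7a5, Slc7a6, Slc6a13, Slc43a2, Slc6a2, Slc38a1, Slc38a2 and Slc7a6os were higher than vehicle under each compound (8 of 48, beside 9.34% of all probes), and Slc6a6, Slc43a1, Slc3a1, Slc38a4 and Slc1a2 were lower under each (5 of 48, beside 14.5%). A fall of Slc1a2 follows from how it passed the filter and is no support. Under E2, 15 of 48 were called, 9 higher and 6 lower, where 28.1% of all probes were called, 11.1% higher and 17% lower. Under BPA, 22 were called, 10 higher and 12 lower, beside 49.4% of all probes, 19.3% higher and 30.2% lower. Under HPTE, 26 were called, 11 higher and 15 lower, beside 48.1%, 19.9% higher and 28.2% lower. The share of transporters called lay near that of all probes in each contrast, and the counts say nothing particular about these families. The median change of the 48 was -0.05, -0.20 and -0.14, and that of all probes was -0.06, -0.10 and -0.09.

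At 24 h most of the transporters were called under E2 and few under the xenoestrogens. E2 gave 28 called, 9 higher and 19 lower, where 63.8% of all probes were called, 26.3% higher and 37.6% lower. BPA gave 4, all lower (Slc1a2, Slc1a3, Slc38a1 and Slc6a2), beside 13.1%, 5.09% higher and 8.03% lower. HPTE gave 11, 2 higher and 9 lower, beside 34%, 14.9% higher and 19.1% lower. For 20 of the 48 the call at 24 h was made under E2 and under neither xenoestrogen, as it was for 34.4% of all probes. No transporter was higher under all 3 compounds at 24 h (3.4% of all probes), and 3 were lower under all 3, Slc1a2, Slc1a3 and Slc6a2 (5.72%). Over the 42 detected on every array, the lower counts were 5, 11 and 14 at 2 h and 18, 3 and 8 at 24 h under E2, BPA and HPTE, and the higher counts were those above. HPTE's higher pair were Slc6a14 and Slc7a4. Counts moved by more than 1.5 times without single arrays, to 9 for E2 at 2 h (without vehicle replicate 1), to 2 for BPA at 24 h without vehicle replicate 1 or BPA 24 h replicate 3 and to 1 without BPA 24 h replicate 1. The 1 left was Slc1a2. For HPTE at 24 h the count was 6 without vehicle replicate 2 and 7 without vehicle replicate 1 or any HPTE 24 h replicate. Over both times 37 of 48 were called at least once against vehicle, beside 83% of all probes, and 11 never.

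The split into higher and lower calls moved with the scaling. For E2 at 2 h it was 4 to 9 without scaling between arrays and 12 to 3 with quantile normalization. For HPTE at 2 h it was 6 to 2 with scaling to the spike-in probes, 11 to 10 without scaling and 13 to 10 with quantile normalization. For HPTE at 24 h it was 0 to 9 without scaling, 0 to 7 with the spike-in probes and 4 to 9 with quantile normalization. On slides that held both a treated array and a vehicle array, the called members differed from that vehicle array in the direction of their call in 15 of 15 values for E2 at 2 h, 43 of 44 for BPA (the exception Slc43a2) and 51 of 52 for HPTE (the exception Slc38a4). At 24 h the counts were 28 of 28, 8 of 8 and 11 of 11. The same arrays made the calls, and Slc1a2 is among these members. The directions therefore largely follow from the calls and are no separate support.

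**Figure D1:**
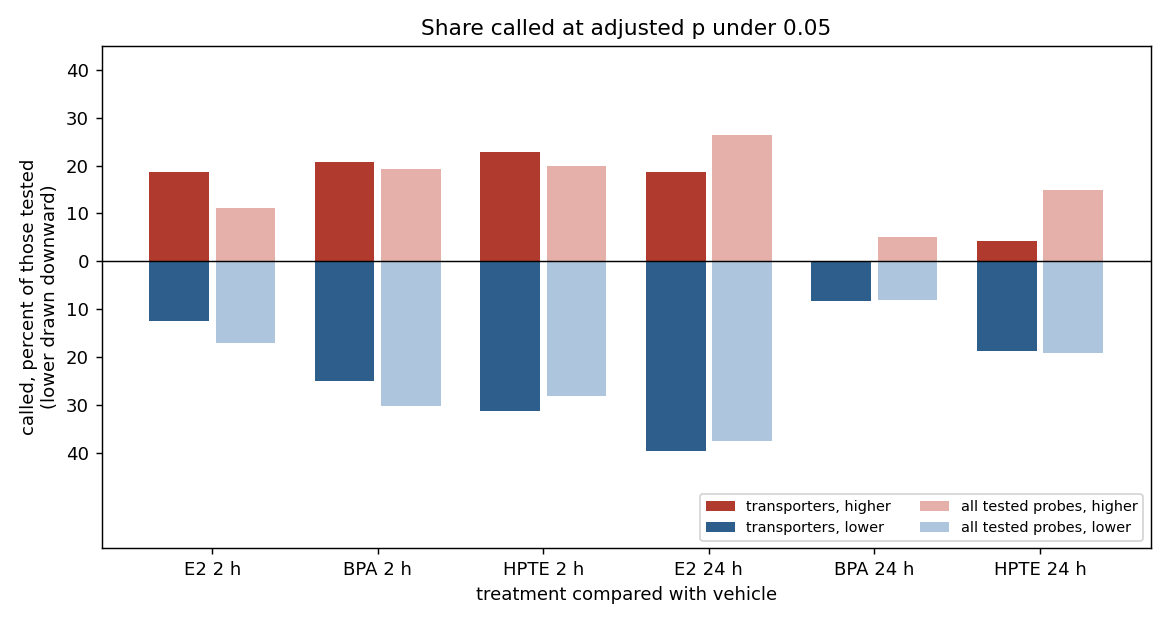
Bars give the percent of the 48 tested transporters and of all 32456 tested probes called higher (drawn upward) or lower (drawn downward) than vehicle, for each compound and time. The downward bars are longest at E2 24 h, with 19 transporters lower and 9 higher, the upward transporter bar is tallest at HPTE 2 h, with 11, and the BPA 24 h bars are the shortest, with 0 higher and 4 lower.

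**Figure D2:**
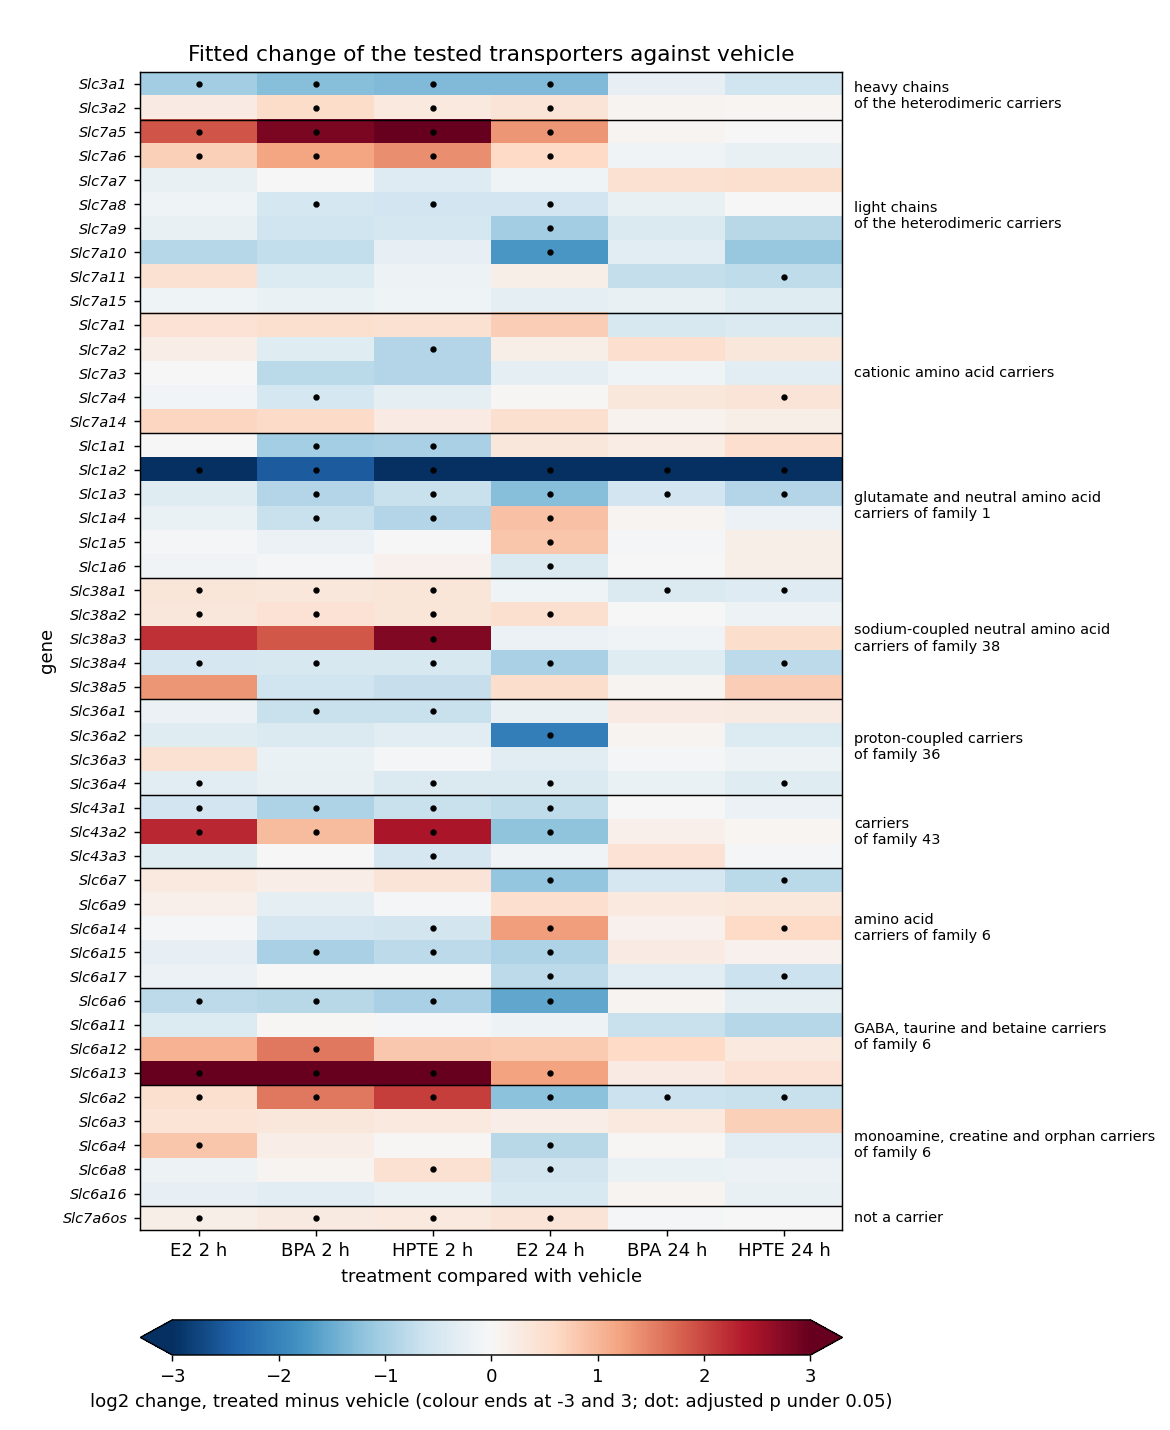
Each row is 1 of the 48 tested transporters, ordered by role, and each column a treatment against vehicle, with colour for the fitted log2 change and a mark where it was called. Slc7a5 and Slc6a13 are high in every 2 h column and in the E2 24 h column, while the BPA 24 h column holds marks for 4 genes only.

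Among the light chains at 2 h, Slc7a5 and Slc7a6 rose under every compound. Slc7a5 (LAT1) exchanges large neutral amino acids such as leucine. It was at -0.59, -0.94 and -0.62 in vehicle, 0.93, 1.31 and 1.29 after E2 at 2 h, 2.52, 2.33 and 1.50 after BPA and 2.21, 2.47 and 2.32 after HPTE. Every treated array lay above every vehicle array, and every BPA and HPTE array above every E2 array. Slc7a5 rose by 1.89 (SE 0.21, adjusted p = 8.47e-06, 3.71-fold) under E2, 2.83 (SE 0.21, adjusted p = 1.18e-07, 7.13-fold) under BPA and 3.05 (SE 0.21, adjusted p = 5.36e-08, 8.28-fold) under HPTE. At 24 h it was at 0.58 and 0.61 after E2, still 1.31 above vehicle (SE 0.23, adjusted p = 0.000139). The BPA arrays were then at -0.72, -0.67 and -0.54 and the HPTE arrays at -0.54, -0.96 and -0.63, which overlapped vehicle, with changes of 0.07 (95% interval -0.37 to 0.51) and 0.01 (-0.43 to 0.45).

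Slc7a6 (y+LAT2) exchanges cationic for neutral amino acids. It was at -2.25, -1.92 and -2.07 in vehicle, -1.48, -1.36 and -1.27 after E2 at 2 h, -0.85, -0.82 and -1.0 after BPA and -0.66, -0.71 and -0.66 after HPTE. The 4 groups did not overlap, in the order vehicle, E2, BPA and HPTE. Its changes were 0.71 (SE 0.09, adjusted p = 2.31e-05), 1.19 (adjusted p = 1.17e-07) and 1.40 (adjusted p = 2.66e-08), and 0.60 at 24 h after E2 (SE 0.10, adjusted p = 5.68e-05). The E2 2 h call of Slc7a6 was lost with scaling to the spike-in probes (0.63, adjusted p = 0.24). At 24 h the BPA and HPTE changes were -0.11 (-0.29 to 0.08) and -0.21 (-0.40 to -0.03, adjusted p = 0.0693). A second probe of Slc7a6 was tested, and its values are not given here. Slc7a6os, on the opposite strand, changed by 0.18, 0.27 and 0.30 at 2 h and by 0.38 at E2 24 h, all called. The E2 2 h call of Slc7a6os was lost without E2 2 h replicate 2 (0.14) and without vehicle replicate 1 (0.18), 2 (0.20) or 3 (0.17), and with the slide as a block (0.17).

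Slc3a2 (4F2hc, CD98) is the heavy chain with which Slc7a5 and Slc7a6 reach the membrane, and its changes were under 2-fold. Its levels were 3.11, 3.26 and 3.37 in vehicle, 3.36, 3.62 and 3.49 after E2 at 2 h, 3.72, 3.81 and 3.90 after BPA and 3.53, 3.44 and 3.67 after HPTE. The BPA and HPTE arrays lay above vehicle, and the lowest E2 array lay just inside it. Slc3a2 rose by 0.56 (SE 0.09, adjusted p = 0.000116) under BPA and 0.30 (adjusted p = 0.0116) under HPTE, and differed by 0.24 (adjusted p = 0.0552) under E2. The HPTE call was lost without HPTE 2 h replicate 3 (0.24) or vehicle replicate 1 (0.23), with the slide as a block (0.31, adjusted p = 0.055) and with quantile normalization (0.20). With the spike-in scaling neither 2 h call of Slc3a2 held (0.65, adjusted p = 0.094, for BPA and 0.55, adjusted p = 0.16, for HPTE). At E2 24 h Slc3a2 was 0.38 above vehicle (adjusted p = 0.00329), a call that quantile normalization ended (0.08, adjusted p = 0.51), as did the spike-in scaling (0.42, adjusted p = 0.28).

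The other heavy chain, Slc3a1 (rBAT), known from kidney and gut, went the other way. It was at -4.93, -4.81 and -3.95 in vehicle and between -6.14 and -5.35 on the 9 treated arrays of 2 h, with no overlap. Slc3a1 fell by 1.05 (SE 0.25, adjusted p = 0.0056) under E2, by 1.27 (adjusted p = 0.000701) under BPA and by 1.32 (adjusted p = 0.000473) under HPTE, and by 1.32 (adjusted p = 0.000756) at E2 24 h. With quantile normalization the E2 changes were -0.77 (adjusted p = 0.06) at 2 h and -0.78 (adjusted p = 0.051) at 24 h. Its light chain Slc7a9, the cystine carrier, was called at E2 24 h alone, at -1.04, and the call was lost without E2 24 h replicate 2 (-0.59) and without vehicle replicate 2 (-1.02) or 3 (-0.85).

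Of the remaining light chains, Slc7a8 (LAT2, neutral amino acids) fell by 0.53 under BPA and 0.57 under HPTE at 2 h and by 0.57 at E2 24 h, and differed by -0.13 under E2 at 2 h. Slc7a11, the cystine and glutamate exchanger whose window is printed above, changed by 0.47, -0.41 and -0.14 at 2 h under E2, BPA and HPTE, none called. At 24 h Slc7a11 was at -1.14, -1.23 and -1.32 after BPA and -1.18, -1.67 and -0.98 after HPTE, all below the vehicle arrays at -0.67, -0.49 and -0.39. The changes were -0.71 (adjusted p = 0.0546) and -0.76 (adjusted p = 0.0196), and the HPTE call was lost without HPTE 24 h replicate 2 (-0.56) or vehicle replicate 2 (-0.75) or 3 (-0.70), and with the slide as a block (-0.69). Slc7a10 (Asc-1), a carrier of small neutral amino acids that adipocytes express, fell by 1.74 (adjusted p = 0.0349) at E2 24 h, from -2.71, -1.69 and -2.72 to -4.31 and -3.91. That call of Slc7a10 was lost without E2 24 h replicate 2 (-1.54) or 3 (-1.94), without vehicle replicate 2 (-1.40), with quantile normalization (-1.39) and with the slide as a block (-1.62). Adipocyte markers (9 of 9 detected) summed to between 18.3 and 23.0 at E2 24 h and between 44.7 and 103 in vehicle, and were lowest, at 8.12, in the HPTE 24 h group, where Slc7a10 was at -3.61, -2.05 and -4.86. Their part was not tested. Slc7a7 and Slc7a15 were never called.

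**Figure D3:**
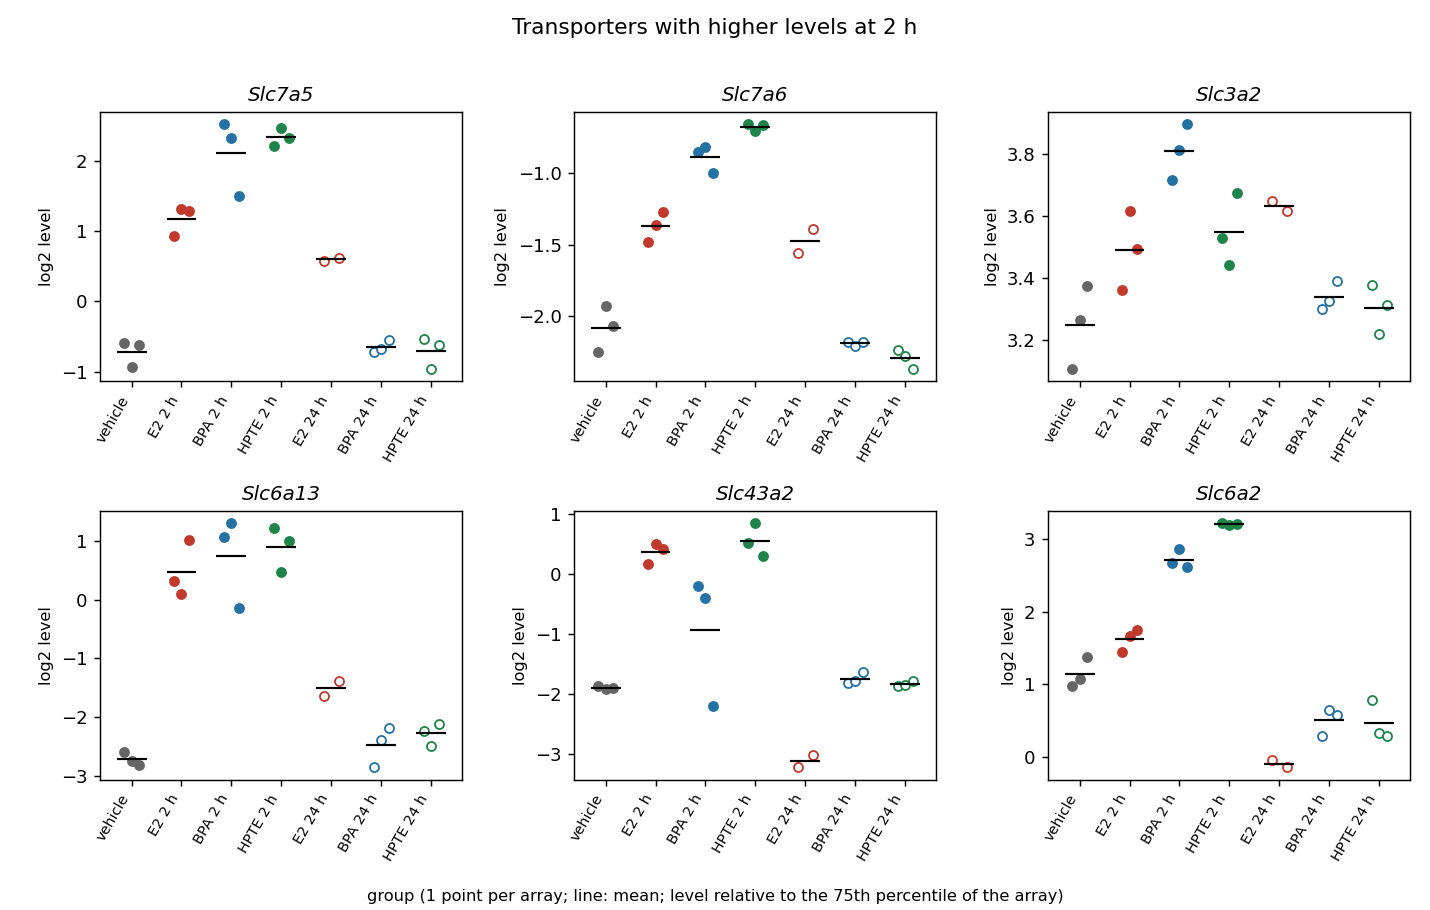
Points are single arrays and lines are group means, with the log2 level relative to the 75th percentile of the array on the vertical axis and the 7 groups on the horizontal axis, for 6 transporters. Slc7a5 goes from -0.94 to -0.59 in vehicle to between 2.21 and 2.47 after HPTE at 2 h and is back between -0.96 and -0.54 at HPTE 24 h.

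The largest rise belonged to Slc6a13 (GAT2), which takes up GABA and taurine with sodium and chloride. Slc6a13 was at -2.60, -2.75 and -2.82 in vehicle. At 2 h it was at 0.32, 0.09 and 1.01 after E2, 1.07, 1.31 and -0.14 after BPA and 1.21, 0.46 and 0.99 after HPTE. All 9 treated arrays lay far above vehicle, and the 3 treated groups overlapped one another. It rose by 3.20 (SE 0.33, adjusted p = 4.97e-06, 9.17-fold), 3.47 (adjusted p = 1.12e-06, 11.1-fold) and 3.61 (adjusted p = 6.34e-07, 12.2-fold). At E2 24 h it was at -1.64 and -1.38, 1.21 above vehicle (adjusted p = 0.00875), and the call was lost without E2 24 h replicate 3 (1.08, adjusted p = 0.067). The BPA and HPTE 24 h changes were 0.24 (-0.45 to 0.93) and 0.44 (-0.25 to 1.14).

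Slc6a12 (BGT1), which takes up betaine and GABA, was called under BPA at 2 h alone, at 1.58 (SE 0.44, adjusted p = 0.00721), and dropped to 0.98 without BPA 2 h replicate 1. Its changes under E2 and HPTE were 1.04 (adjusted p = 0.09) and 0.81 (adjusted p = 0.142). Slc6a6 (TauT), the taurine carrier, fell. It was at 4.87, 4.66 and 4.48 in vehicle, 4.04, 3.82 and 3.79 after E2 at 2 h, 4.03, 3.59 and 3.87 after BPA and 3.83, 3.68 and 3.56 after HPTE. No treated array of Slc6a6 reached the lowest vehicle array. It fell by 0.79 (SE 0.12, adjusted p = 0.000169), by 0.84 (adjusted p = 4.64e-05) and by 0.98 (adjusted p = 9.62e-06). At E2 24 h it was lower still, at 3.05 and 3.18, a change of -1.55 (SE 0.13, adjusted p = 1.28e-07, 2.94-fold lower). BPA and HPTE at 24 h gave 0.08 (-0.17 to 0.34) and -0.28 (-0.54 to -0.03, adjusted p = 0.0829). With scaling to the spike-in probes the 2 h changes of Slc6a6 were -0.86 (adjusted p = 0.056) for E2 and -0.73 (adjusted p = 0.067) for HPTE. Slc6a11 (GAT3) was never called.

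The system L carriers of family 43, which work without a heavy chain, split. Slc43a2 (LAT4) was at -1.87, -1.91 and -1.90 in vehicle, 0.17, 0.50 and 0.41 after E2 at 2 h and 0.51, 0.85 and 0.30 after HPTE. After BPA it was at -0.20, -0.41 and -2.20, so that replicate 3 lay below the vehicle arrays while the other two lay well above them. Slc43a2 rose by 2.25 (SE 0.35, adjusted p = 0.000201, 4.77-fold) under E2 and 2.45 (adjusted p = 3.81e-05, 5.45-fold) under HPTE. Under BPA the change was 0.95 (adjusted p = 0.0337), 1.59 without BPA 2 h replicate 3, and not called without BPA 2 h replicate 1 (0.59) or 2 (0.69), without vehicle replicate 1 (0.97), 2 (0.94) or 3 (0.95), or with the slide as a block (0.89). The chosen probe lies upstream of the one that carries the RefSeq accession of Slc43a2, and that second probe gave 1.01, 1.80 and 2.30 under E2, BPA and HPTE, all called. At E2 24 h Slc43a2 was at -3.22 and -3.0, below every vehicle array, a change of -1.22 (adjusted p = 0.0129). That call was lost without E2 24 h replicate 2 (-1.11) and with the slide as a block (-1.15), and the second probe gave -0.10.

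Slc43a1 (LAT3) fell where Slc43a2 rose. Its levels were 0.80, 0.75 and 0.70 in vehicle, 0.02, 0.38 and 0.12 after E2 at 2 h, -0.21, -0.41 and 0.08 after BPA and 0.09, 0.08 and 0.08 after HPTE. Treated and vehicle arrays did not overlap. Slc43a1 fell by 0.58 (SE 0.11, adjusted p = 0.0012), by 0.93 (adjusted p = 9.31e-06) and by 0.67 (adjusted p = 0.000149), and by 0.77 (adjusted p = 6.63e-05) at E2 24 h. At BPA 24 h the levels of 0.79, 0.74 and 0.70 matched vehicle, with a change of -0.01 (-0.24 to 0.23). With the spike-in scaling the E2 2 h change of Slc43a1 was -0.65 (adjusted p = 0.15). Slc43a3, which carries purine nucleobases, was called under HPTE at 2 h alone, at -0.51, and not without HPTE 2 h replicate 1 (-0.42) or vehicle replicate 2 (-0.44).

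Slc6a2 (NET), the noradrenaline carrier, which belongs to the same family as the amino acid carriers, was called in all 6 contrasts with vehicle, as 4.5% of all probes were, and it changed direction with time. Slc6a2 was at 0.98, 1.07 and 1.38 in vehicle, 1.45, 1.66 and 1.75 after E2 at 2 h, 2.67, 2.86 and 2.62 after BPA and 3.22, 3.20 and 3.21 after HPTE. These 4 groups did not overlap. The changes were 0.48 (SE 0.14, adjusted p = 0.0198), 1.57 (adjusted p = 7.8e-07, 2.97-fold) and 2.06 (adjusted p = 6.11e-08, 4.18-fold). The E2 call was lost without E2 2 h replicate 2 (0.46) or 3 (0.41), without vehicle replicate 1 (0.40) or 2 (0.44), with the slide as a block (0.38), without scaling (0.25) and with the spike-in scaling (0.40). At 24 h the levels of Slc6a2 were -0.04 and -0.14 after E2, 0.29, 0.65 and 0.59 after BPA and 0.79, 0.33 and 0.29 after HPTE, all below vehicle. It fell by 1.23 (adjusted p = 6.97e-06), by 0.64 (adjusted p = 0.00838) and by 0.67 (adjusted p = 0.00215). The BPA call was lost without BPA 24 h replicate 1 (-0.53), with the slide as a block (-0.63) and with the spike-in scaling (-0.76).

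Slc6a4 (SERT), the serotonin carrier, was called higher under E2 at 2 h (0.83, adjusted p = 0.039) and lower at E2 24 h (-0.83, adjusted p = 0.0303). At 2 h its level stood highest, at -3.92, on replicate 2, the array with the most pancreas transcripts, against -4.75 and -5.32 on the others. The 2 h call of Slc6a4 was lost without E2 2 h replicate 2 (0.46) or 1 (0.87) and without vehicle replicate 1 (0.69) or 3 (0.85), and the 24 h call without E2 24 h replicate 2 (-0.59), without vehicle replicate 2 (-0.72) or 3 (-0.81) and with the slide as a block (-0.75). Slc6a8, the creatine carrier, was 0.45 higher under HPTE at 2 h and 0.55 lower at E2 24 h (a change of -0.55), both called. Slc6a3 and Slc6a16 were never called.

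In family 1, Slc1a2, Slc1a3 and Slc1a6 were called lower at E2 24 h and Slc1a4 and Slc1a5 higher. Slc1a1 (EAAC1), a glutamate and aspartate carrier of epithelia and neurons, was lower at 2 h after BPA and HPTE. Slc1a1 was at 0.55, 0.33 and 0.45 in vehicle, 0.68, 0.23 and 0.43 after E2, -1.10, -0.55 and -0.10 after BPA and -0.40, -0.55 and -0.67 after HPTE. The E2 arrays overlapped vehicle, and the BPA and HPTE arrays lay below both. The changes were 0.01 (-0.39 to 0.41), -1.03 (SE 0.19, adjusted p = 0.000401) and -0.98 (SE 0.19, adjusted p = 0.000522). With the spike-in scaling the HPTE change of Slc1a1 was -0.73 (adjusted p = 0.098). Epithelial markers (14 of 14 detected) summed to between 71.4 and 110 after BPA and between 105 and 111 after HPTE at 2 h, and between 110 and 130 in vehicle. Their part was not tested.

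Slc1a3 (GLAST), another glutamate carrier, was at -0.15, -0.42 and -0.44 in vehicle. It fell by 0.87 (adjusted p = 0.000979) under BPA and 0.67 (adjusted p = 0.00649) under HPTE at 2 h. At 24 h it was at -1.74 and -1.51 after E2, -0.99, -0.67 and -1.09 after BPA and -0.95, -1.21 and -1.47 after HPTE, below vehicle on all 8 arrays. The 24 h changes of Slc1a3 were -1.29 (adjusted p = 4.85e-05), -0.58 (adjusted p = 0.0467) and -0.87 (adjusted p = 0.00198). The BPA call was lost without BPA 24 h replicate 1 (-0.54) or 3 (-0.49), without vehicle replicate 1 (-0.49), 2 (-0.62) or 3 (-0.63), with the slide as a block (-0.43) and with the spike-in scaling (-0.70).

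Slc1a2 (GLT-1), the main glutamate carrier of astrocytes, was near the limit of detection. Its chosen probe lies on the strand opposite to the probes with its RefSeq accession, and those were not tested. It was well above background on the 3 vehicle arrays, at -3.41, -4.87 and -5.19, and on BPA 2 h replicate 1, at -5.98, and on none of the 16 others. Against vehicle it was at least 4.99-fold lower after E2 and at least 6.71-fold lower after HPTE at 2 h, and at least 5.42-fold, 5.70-fold and 5.83-fold lower after E2, BPA and HPTE at 24 h. The change after BPA at 2 h, with 1 of 3 arrays measured, was -2.48. Slc1a2 was tested only because its vehicle arrays were detected, so these differences are a description, and no p is given for them. The vehicle arrays are also those with the most sperm cell transcripts, at 138, 46.1 and 41.1, and BPA 2 h replicate 1 has the most of the treated arrays, at 17.7. Whether the signal of Slc1a2 belongs to those transcripts was not tested.

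Slc1a5 (ASCT2), which takes up glutamine, was called at E2 24 h alone. Slc1a5 was at 3.18, 3.53 and 3.22 in vehicle and at 4.19 and 4.09 after E2 at 24 h, while the other 5 groups lay between 2.90 and 3.54. It rose by 0.83 (SE 0.13, adjusted p = 3.78e-05, 1.77-fold), and its 2 h changes were -0.04 (-0.28 to 0.20), -0.17 (-0.41 to 0.07) and -0.01 (-0.25 to 0.23). Slc1a4 (ASCT1), the serine and alanine exchanger, was at -1.39 and -1.69 after E2 at 24 h against -2.47, -2.49 and -2.30 in vehicle. It rose by 0.88 (SE 0.30, adjusted p = 0.0188), and the call was lost without E2 24 h replicate 2 (0.73) and with the slide as a block (0.90, adjusted p = 0.053). At 2 h Slc1a4 was called lower under BPA (-0.68, adjusted p = 0.0483) and HPTE (-0.88, adjusted p = 0.0139). The BPA call was lost without BPA 2 h replicate 1 (-0.52) or 2 (-0.61), without vehicle replicate 1 (-0.70), 2 (-0.71) or 3 (-0.62) and with the slide as a block (-0.58), and the HPTE call without HPTE 2 h replicate 1 (-0.79) and with the slide as a block (-0.78). Epithelial markers summed to between 289 and 318 at E2 24 h, above the 110 to 130 of vehicle, and their part in the rise of Slc1a4 and Slc1a5 was not tested. Slc1a6 was called at E2 24 h alone, at -0.43, and not without E2 24 h replicate 3 (-0.31).

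**Figure D4:**
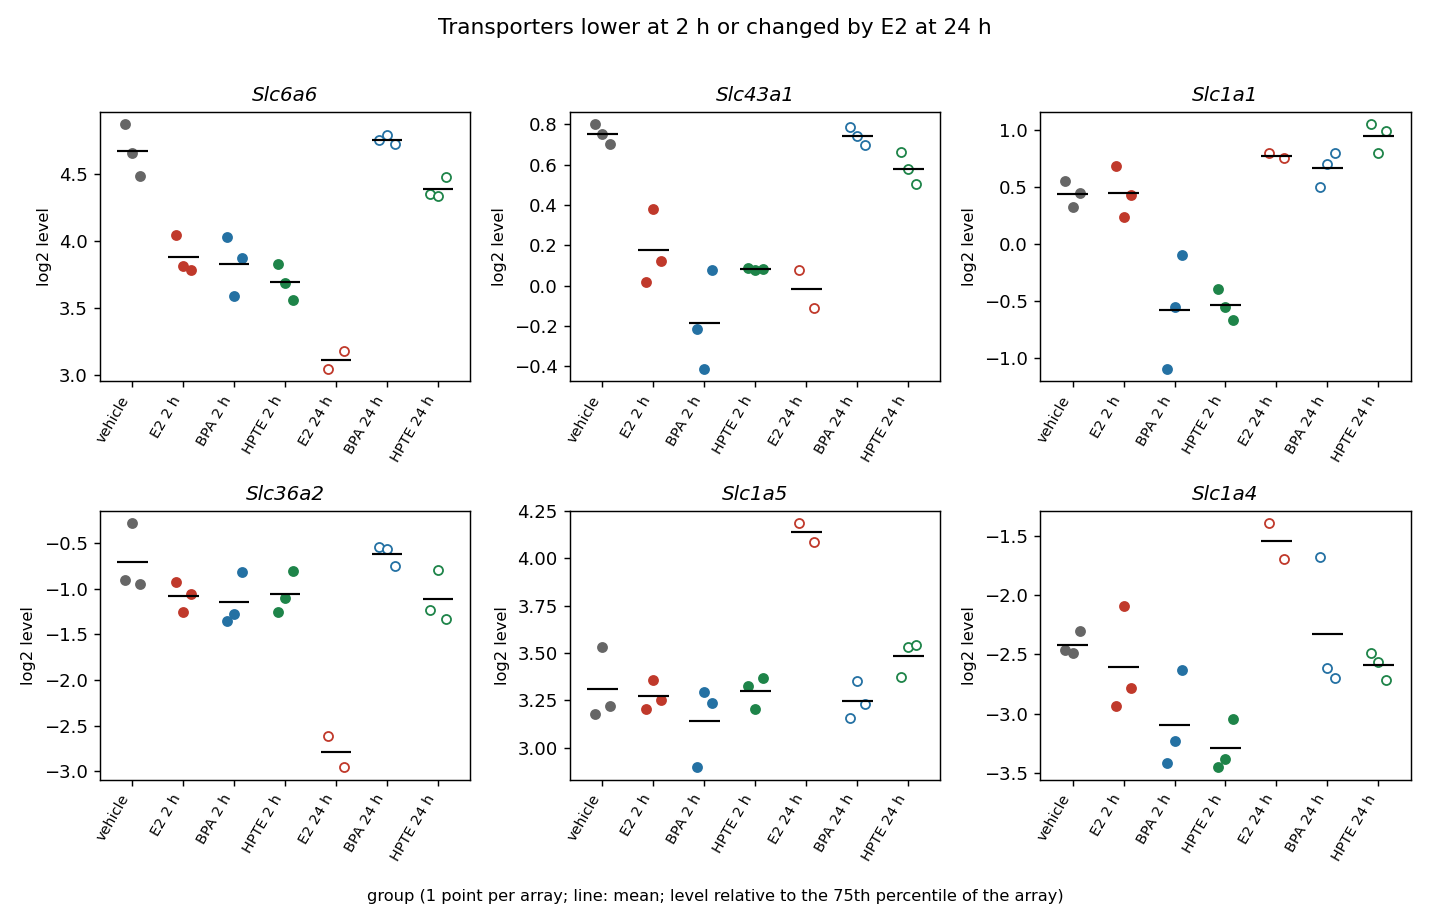
Points are single arrays and lines are group means of the log2 level relative to the 75th percentile of the array, by group, for 6 transporters. Slc6a6 and Slc43a1 lie below vehicle in each 2 h group and at E2 24 h, Slc1a1 after BPA and HPTE at 2 h, and Slc1a5 stands out at E2 24 h, with 4.19 and 4.09.

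The sodium-coupled neutral amino acid carriers of family 38 that were called, apart from Slc38a3, changed by under 2-fold. Slc38a1 (SNAT1), a glutamine carrier, was higher by 0.37 (adjusted p = 0.0289), 0.35 (adjusted p = 0.023) and 0.37 (adjusted p = 0.0172) under E2, BPA and HPTE at 2 h, and lower at 24 h under BPA (-0.43, adjusted p = 0.0251) and HPTE (-0.38, adjusted p = 0.0201). All of these calls of Slc38a1 were lost with the slide as a block (0.35, 0.33, 0.35, -0.44 and -0.39) and with the spike-in scaling (0.29, 0.43, 0.61, -0.56 and -0.68), and leaving out single arrays, 4 for each of the E2 and BPA contrasts and 3 for each HPTE contrast, also ended them. The values without an array were 0.30 to 0.34 for E2 (without E2 2 h replicate 1 or 3, or vehicle replicate 2 or 3), 0.28 to 0.32 for BPA at 2 h (BPA 2 h replicate 2 or 3, vehicle replicate 2 or 3) and 0.28 to 0.34 for HPTE at 2 h (HPTE 2 h replicate 2, vehicle replicate 2 or 3). At 24 h they were -0.45 to -0.34 for BPA (any BPA 24 h replicate, vehicle replicate 1) and -0.35 to -0.29 for HPTE (HPTE 24 h replicate 1 or 3, vehicle replicate 1). Further probes of Slc38a1 were tested, and their values are not given here.

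Slc38a2 (SNAT2), the carrier that cells raise when amino acids run short, was higher by 0.35 (adjusted p = 0.0151), 0.43 (adjusted p = 0.00189) and 0.37 (adjusted p = 0.00534) at 2 h and by 0.49 (adjusted p = 0.00119) at E2 24 h. Its probes did not give 1 answer. A second probe of Slc38a2 gave -0.02, 0.02 and -0.07 at 2 h and was called lower at E2 24 h (-0.48), while another probe gave 0.31, 0.52 and 0.39 at 2 h, all called, and -0.21 at E2 24 h. The E2 2 h call was lost without E2 2 h replicate 2 (0.31) or 3 (0.30), without vehicle replicate 1 (0.32), with the slide as a block (0.33) and without scaling (0.12), and the E2 24 h call with quantile normalization (0.17). With the spike-in scaling none of the 4 calls of Slc38a2 held (0.27, 0.52 and 0.62 at 2 h and 0.52 at E2 24 h).

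Slc38a4 (SNAT4) fell by 0.51 (adjusted p = 0.0269), by 0.48 (adjusted p = 0.021) and by 0.49 (adjusted p = 0.0198) at 2 h, and by 0.98 (adjusted p = 0.00021) and 0.78 (adjusted p = 0.00189) at 24 h under E2 and HPTE. The 2 h calls of Slc38a4 were lost with the slide as a block (-0.45, -0.45 and -0.46), without vehicle replicate 3 (-0.40, -0.38 and -0.38), without vehicle replicate 1 for E2 (-0.52) and without replicate 1 or 2 of each compound (-0.44 and -0.47 for E2, -0.47 and -0.38 for BPA, -0.46 and -0.37 for HPTE). The HPTE 24 h call was lost with the slide as a block (-0.70). Slc38a3 and Slc38a5 (SNAT3 and SNAT5) carry glutamine and histidine and stood apart on 1 array. Slc38a5 was at 3.23 on E2 2 h replicate 2 and at -1.94 and -0.97 on the other E2 2 h arrays, beside -0.97, -1.25 and -1.42 in vehicle, and was never called. Slc38a3 was at -0.59 on that array and at -5.34 and -4.56 on the others, beside -6.00, -5.14 and -5.93 in vehicle, a change of 2.19 (adjusted p = 0.0837). After HPTE at 2 h, where pancreas transcripts summed to at most 0.981, Slc38a3 was at -2.74, -3.18 and -2.78, above every vehicle array, with a change of 2.79 (SE 0.90, adjusted p = 0.0181) that was not called without vehicle replicate 1 (2.63).

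**Figure D5:**
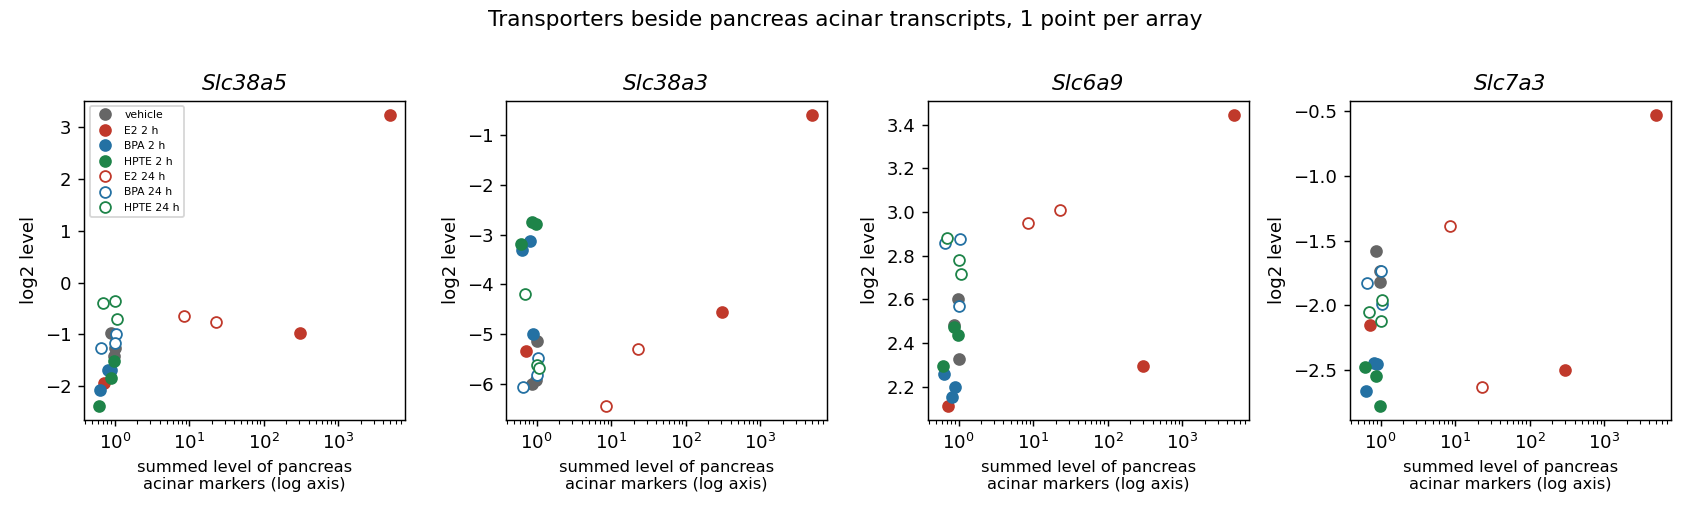
Each point is 1 of the 20 arrays, with the summed level of pancreas acinar markers (log axis) on the horizontal axis and the log2 level of Slc38a5, Slc38a3, Slc6a9 or Slc7a3 on the vertical axis. E2 2 h replicate 2, at a marker sum of 4946, has the highest level of each of the 4 genes, and the E2 24 h arrays, at 8.61 and 22.9, follow for Slc6a9, at 3.01 and 2.95.

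The proton-coupled carriers of family 36 were called lower or not at all. Slc36a1 (PAT1), which exports small amino acids from lysosomes, was at -0.98, -0.89 and -0.83 in vehicle, -1.41, -1.76 and -1.50 after BPA at 2 h and -1.46, -1.55 and -1.68 after HPTE, with no overlap. It fell by 0.66 under BPA (SE 0.11, adjusted p = 0.000132) and under HPTE (adjusted p = 0.000104), whereas the E2 arrays, at -1.11, -0.87 and -1.21, overlapped vehicle, with a change of -0.17 (-0.39 to 0.06). Slc36a2 (PAT2), a glycine and proline carrier of adipocytes and kidney, was called at E2 24 h alone. Slc36a2 was at -2.62 and -2.96 there, against -0.90, -0.28 and -0.94 in vehicle and between -1.36 and -0.54 in the other 5 treated groups. The change was -2.08 (SE 0.22, adjusted p = 1.19e-06, 4.22-fold lower), beside the lower adipocyte sum at E2 24 h given above, whose part was not tested. HPTE 24 h replicate 3, with the lowest adipocyte sum of 8.12, had Slc36a2 at -1.33. Slc36a4 was called lower under E2 and HPTE at both times (-0.33, -0.43, -0.44 and -0.36), and Slc36a3 was never called. The E2 2 h call of Slc36a4 was lost without E2 2 h replicate 2 (-0.29) or 3 (-0.32) and without vehicle replicate 1 (-0.27), 2 (-0.34) or 3 (-0.37), with the slide as a block (-0.33), and the E2 24 h call without E2 24 h replicate 2 (-0.26). Its HPTE 24 h call was lost without HPTE 24 h replicate 2 (-0.37) or 3 (-0.31) and without vehicle replicate 1 (-0.30) or 2 (-0.37), and with the slide as a block (-0.39).

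Among the amino acid carriers of family 6, Slc6a14 (ATB0,+), which takes up neutral and cationic amino acids across mucosal epithelia, rose at E2 24 h. Slc6a14 was at -4.36 and -4.10 there and at -5.83, -5.29 and -5.33 in vehicle, a rise of 1.25 (SE 0.23, adjusted p = 0.000225, 2.38-fold). Under HPTE it was called lower at 2 h (-0.56, adjusted p = 0.0371) and higher at 24 h (0.60, adjusted p = 0.0376). The 2 h call was lost without HPTE 2 h replicate 2 (-0.43) or 3 (-0.51) and without vehicle replicate 2 (-0.46) or 3 (-0.48), and the 24 h call of Slc6a14 without HPTE 24 h replicate 2 (0.60, adjusted p = 0.079) or 3 (0.52), without vehicle replicate 1 (0.42) and with the slide as a block (0.48). Epithelial markers summed to between 180 and 197 at HPTE 24 h, and their part was not tested. Slc6a15 (B0AT2), a carrier of branched-chain amino acids and proline, was at -2.69, -2.34 and -2.45 in vehicle, -3.83, -3.44 and -3.11 after BPA at 2 h and -3.30, -3.17 and -3.38 after HPTE. Slc6a15 fell by 0.96 (SE 0.17, adjusted p = 0.000244) and by 0.79 (adjusted p = 0.00108), and by 0.93 (adjusted p = 0.000461) at E2 24 h, with -0.24 (-0.59 to 0.12) under E2 at 2 h.

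Slc6a7, the proline carrier of brain synapses, fell at E2 24 h by 1.17 (adjusted p = 0.00387) and was called at HPTE 24 h at -0.81 (adjusted p = 0.0356). The HPTE call of Slc6a7 was lost without HPTE 24 h replicate 1 (-0.82) or 2 (-0.65), without vehicle replicate 1 (-0.80) or 2 (-0.69), with the slide as a block (-0.91) and with quantile normalization (-0.42). Slc6a17 fell by 0.78 at E2 24 h and was called at HPTE 24 h at -0.65. The E2 change of Slc6a17 was -1.21 without E2 24 h replicate 2 and -0.35, not called, without replicate 3, and the HPTE call was lost without HPTE 24 h replicate 1 (-0.63) or 2 (-0.61) and without vehicle replicate 2 (-0.60) or 3 (-0.51), and with the slide as a block (-0.66). Slc6a9 (GlyT1, glycine) was never called and was highest, at 3.44, on E2 2 h replicate 2, with 2.11 and 2.29 on the other E2 2 h arrays.

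Few of the 5 cationic amino acid carriers were called. Slc7a1 (CAT1), the arginine carrier of most cells, changed by 0.44 (-0.56 to 1.44), 0.48 (-0.53 to 1.48) and 0.46 (-0.54 to 1.47) at 2 h and by 0.73 (-0.39 to 1.85), -0.47 and -0.43 at 24 h, none called. The intervals of Slc7a1 do not exclude a rise of 2-fold at 2 h or at E2 24 h. It was above background on 18 of the 20 arrays, and not on all of those at BPA 24 h and HPTE 24 h. With quantile normalization its E2 24 h change was 1.27 and called (adjusted p = 0.022). Slc7a4 was called under BPA at 2 h (-0.52, adjusted p = 0.00601) and HPTE at 24 h (0.39, adjusted p = 0.0424), and the HPTE call was lost without any single HPTE 24 h array (0.37, 0.41 and 0.38), without vehicle replicate 1 (0.28) or 2 (0.44, adjusted p = 0.05) and with the slide as a block (0.40). Slc7a2 (CAT2) was called under HPTE at 2 h alone, at -0.87, and not without HPTE 2 h replicate 2 (-0.47) or vehicle replicate 1 (-0.78), or with the slide as a block (-0.80). Slc7a3 and Slc7a14 were never called.

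E2 and the xenoestrogens were given at doses of 250 ng and 750 µg, so the values stand side by side and the doses differ. BPA against E2 at 2 h gave 12 of 48 called (19% of all probes) and HPTE against E2 gave 9 (16.6%). Slc7a5 was higher under BPA by 0.94 (adjusted p = 0.00635) and under HPTE by 1.16 (adjusted p = 0.00175), Slc7a6 by 0.48 (adjusted p = 0.002) and 0.69 (adjusted p = 0.000169), and Slc6a2 by 1.09 (adjusted p = 0.00028) and 1.59 (adjusted p = 2.88e-05). Slc1a1 was lower than under E2 by 1.03 and 0.99 (differences of -1.03 and -0.99) and Slc36a1 by 0.49 and 0.50 (-0.49 and -0.50). These calls held with each array left out in turn, 6 of the 12 and 6 of the 9, with Slc6a15 (-0.73) for BPA and Slc6a8 (0.61) for HPTE. With the spike-in scaling only 1 was called for BPA and 2 for HPTE. A fit to the groups compared left 1 and 7. E2 2 h replicates 2 and 3 hold the pancreas transcripts given above, whose part was not tested. With the slide as a block the BPA difference of Slc7a5 was 0.90 (adjusted p = 0.057) and that of Slc6a15 was -0.67 (adjusted p = 0.051). For Slc6a13, the difference from E2 was 0.27 (-0.42 to 0.97) for BPA and 0.41 (-0.28 to 1.11) for HPTE.

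At 24 h BPA differed from E2 in 25 of 48 (57.9% of all probes) and HPTE in 21 (48.9%). Slc7a5 was then lower than under E2, by 1.24 on the log2 scale under BPA (a difference of -1.24, adjusted p = 0.000288) and 1.30 under HPTE (-1.30, adjusted p = 0.00025), and Slc7a6 by -0.71 (adjusted p = 1.52e-05) and -0.82 (adjusted p = 6.16e-06). Slc1a5 differed by -0.89 and -0.66. Slc36a2 was higher than under E2 by 2.16 and 1.67, Slc6a6 by 1.64 and 1.27, Slc6a15 by 1.18 and 1.06 and Slc43a1 by 0.76 and 0.60. The calls of these genes held with each array left out in turn, and 12 of the 25 and 12 of the 21 did so in all.

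BPA and HPTE are both bisphenols given at the same dose, and they differ in the bridge between the phenols, which carries methyl groups in BPA and a trichloromethyl group in HPTE. The 48 transporters were compared at both times. None was called at 2 h (0.438% of all probes were) and none at 24 h (4.08%), by limma. At 2 h 7 had an unadjusted p under 0.05, with a lowest adjusted p of 0.0782, and at 24 h 5 had, with a lowest of 0.084. The widths of the intervals matter here, since 36 of 48 at 2 h and 35 of 48 at 24 h lay wholly within 2-fold either way and the others did not. Slc7a5 differed by 0.22 (-0.22 to 0.65) at 2 h, HPTE over BPA, and by -0.06 (-0.50 to 0.38) at 24 h, and Slc6a13 by 0.14 (-0.55 to 0.84) and 0.20 (-0.49 to 0.90). Slc43a2 differed by 1.49 at 2 h (0.75 to 2.24, adjusted p = 0.0782), by 0.86 without the low BPA 2 h replicate 3 (adjusted p = 0.00957, called) and by 1.76 without BPA 2 h replicate 2 (adjusted p = 0.0314, called). Without BPA 2 h replicate 3 Slc43a1 was also called, at 0.40, and at 24 h Slc6a6 was called with quantile normalization (-0.49) and with normexp (-0.50), and Slc43a3 with normexp (-0.54). For Slc43a2, the probe with the RefSeq accession set BPA and HPTE at 2 h closer together than the chosen probe, by the values given above. None of the 29 further probes tested was called for HPTE against BPA at 2 h. Slc6a2 differed by 0.49 (0.19 to 0.79, adjusted p = 0.121), with the HPTE arrays all above the BPA arrays. A change of the HPTE and BPA difference with time was called for 0 of the 48 by limma, beside 0.0863% of all probes, and 5 had an unadjusted p under 0.05.

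Between 2 h and 24 h, without the vehicle arrays, 20 of 48 differed under E2 (56% of all probes), 22 under BPA (48.4%) and 27 under HPTE (54.1%). Slc6a13 was lower at 24 h by 1.99, 3.23 and 3.17 on the log2 scale (differences of -1.99, -3.23 and -3.17), and Slc6a2 differed by -1.71, -2.21 and -2.74. Slc7a5 differed by -0.58 (adjusted p = 0.0428) under E2, against -2.76 and -3.04 under BPA and HPTE. The E2 difference of Slc7a5 was not called without E2 24 h replicate 2 (-0.56) or 3 (-0.60) or E2 2 h replicate 2 (-0.51) or 3 (-0.52), or with the slide as a block (-0.56, adjusted p = 0.176). For Slc7a6 the E2 difference was -0.10 (-0.31 to 0.10), while those of BPA and HPTE were -1.30 (adjusted p = 3.53e-08) and -1.61 (adjusted p = 3.62e-09).

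Genes that act beside the carriers are described by the counts of each list, to be read against the shares of all probes. Those were 11.1% higher and 17% lower under E2 at 2 h, 19.3% and 30.2% under BPA and 19.9% and 28.2% under HPTE, and 26.3% and 37.6%, 5.09% and 8.03%, and 14.9% and 19.1% at 24 h. One list joins amino acid synthesis genes with targets of ATF4, the regulator of amino acid synthesis and stress genes. Of its 27 tested genes, 10 were higher and 1 lower under E2 at 2 h, 8 and 5 under BPA, 8 and 7 under HPTE, and 15 and 4 at E2 24 h. At 24 h BPA gave 0 higher and 1 lower and HPTE 7 and 1. Pycr1, the last enzyme of proline synthesis, was 3.94 higher at E2 24 h and the transcription factor Atf3 3.48 higher under BPA at 2 h, while Nupr1 (-1.83) and Cth, the enzyme that makes cysteine (-1.74), were lower under HPTE at 2 h. Of 19 tested genes of polyamine and arginine metabolism, 9, 11 and 11 were higher under E2, BPA and HPTE at 2 h and 0, 1 and 1 lower. At 24 h 14, 3 and 7 were higher and 0, 1 and 1 lower. Arg1, the arginase (2.71), and Srm, spermidine synthase (2.41), led at E2 24 h, and Paox (-0.66, HPTE 2 h) and Amd1 (-0.42, HPTE 24 h) were the lowest called.

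Of 27 tested genes that pass amino acid supply to mTORC1, 2 were higher and 4 lower under E2 at 2 h, 7 and 9 under BPA and 7 and 10 under HPTE, and 9 and 10, 1 and 2, and 5 and 5 at 24 h. Sec13 (1.78) and Mlst8, a subunit of the kinase complex (1.11), were higher at E2 24 h. The leucine sensor family members Sesn1 (-1.90, HPTE) and Sesn3 (-1.40, BPA) were lower at 2 h. The last list holds carriers from other families, and not all of them carry amino acids. Of its 16 tested genes, 0 were higher and 2 lower under E2 at 2 h, 4 and 4 under BPA and 1 and 2 under HPTE. At 24 h they were 5 and 2, 1 and 0, and 3 and 0. Slc13a3, a carrier of dicarboxylates, was 4.73 higher under BPA at 2 h (SE 1.44, adjusted p = 0.0131), from a vehicle mean of -6.01 to -1.27. How many arrays detected Slc13a3 is not given here. Slc25a15, the mitochondrial ornithine carrier, was 2.23 higher at E2 24 h. Slc25a13 (-1.32), the mitochondrial aspartate and glutamate carrier, and Slc22a4 (-0.93) were lower under BPA at 2 h. The median change at E2 24 h was 0.78 for the list of ATF4 targets and amino acid synthesis and 0.73 for the polyamine list, beside -0.15 for all probes.

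Second and further probes were tested for some of the genes (29 probes). At 2 h, of those whose gene was called, 10 of 14 were called the same way under E2, 14 of 18 under BPA and 16 of 20 under HPTE, and 0 the opposite way. At E2 24 h 11 of 18 were called the same way and 2 the opposite way. Of these 2, 1 is the Slc38a2 probe called lower above, and the other is not identified here. Between treated groups, 11 of 17 were called the same way for BPA against E2 at 24 h and 8 of 13 for HPTE against E2. For 24 h against 2 h under E2 it was 13 of 17. In each of these contrasts 1 probe was called the opposite way. At 24 h the counts were 3 of 7 for BPA and 5 of 16 for HPTE, with 0 opposite.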

How the data were processed

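The deposited scanner files hold spot intensity from 1-colour arrays, which the authors extracted with Agilent Feature Extraction 9.5. Per the file headers, background had been subtracted within each array and no scaling across arrays was applied. Values in the deposited series matrix were identical for all 20 arrays (relative tolerance 1e-06). Deposited flags (other) marked control spots, outlying spots (left out, 46 to 134 per array) and spots well above background, which 72.7% to 81.4% of probes were and which sets the depth. Intensity was log2 transformed, averaged per probe and set relative to each array's 75th percentile (1320 to 2046).

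A means model over 7 groups was fitted with limma 3.58.1 in R 4.3.3 (lmFit and eBayes, with 1.90 prior degrees of freedom) on 32456 probes, two-sided, with Benjamini-Hochberg adjustment within a contrast and calls at 0.05, and was tested on simulated data. Folds against a group not above background are bounds, computed from each array's lowest detected signal. Named genes were the 5 largest called increases and decreases per contrast with vehicle among members whose arrays did not overlap, and Slc3a2, Slc7a5, Slc7a1, Slc7a11, Slc1a5, Slc38a1 and Slc38a2. Of each pathway list the 2 largest called changes each way were named, and other members were added after their values were seen. Members and lists were chosen with earlier results of these data known. Symbols were matched to RefSeq through accessions (16628 of 18713). Alternatives were scaling, background correction, the filter, the slide, the replicate number, the groups fitted, second probes and each array left out. Results for 1 transporter are not reported here.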

Additional observations from a re-analysis of the deposited data

Results flagged for a closer look

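Several transporters changed in opposite directions at 2 h and 24 h against the same vehicle arrays, and the difference between the times was itself tested. Values are 24 h minus 2 h on the log2 scale, from limma. Slc6a2, the noradrenaline carrier, was above vehicle at 2 h and below it at 24 h under each compound, with differences of -1.71 under E2, -2.21 under BPA and -2.74 under HPTE. Slc43a2 did so under E2 (-3.47), and so did Slc6a4 (-1.66), whose 2 h level was highest on an array with pancreas transcripts. Slc38a1 did so under BPA (-0.78) and HPTE (-0.75), and Slc6a14 went from below to above vehicle under HPTE (1.15). With the slide as a block, the calls against vehicle ended for Slc43a2 and Slc6a4 at E2 24 h and for Slc6a14 at HPTE 24 h. Those of Slc38a1 ended at both times, and those of Slc6a2 at E2 2 h and BPA 24 h. The second probe of Slc43a2 did not share its call at E2 24 h, as given above.

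The compounds differed in 12 (BPA against E2) and 9 (HPTE against E2) of the 48 transporters at 2 h, beside 19% and 16.6% of all probes, and in 25 and 21 at 24 h, beside 57.9% and 48.9%. The times differed in 20 under E2, 22 under BPA and 27 under HPTE, beside 56%, 48.4% and 54.1% of all probes. These counts show nothing particular to the transporters.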

How the results depend on the processing

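Of 62 called values of named genes, 28 kept their direction and call under every alternative run for them. Over the 31 settings, 3 values changed direction, all with the second probe of Slc38a2 (-0.018 at E2 2 h, -0.068 at HPTE 2 h and -0.48 at E2 24 h). Scaling to the 8 spike-in probes lowered the counts of called transporters: E2, BPA and HPTE at 2 h to 5, 11 and 8, at 24 h to 16, 1 and 7, BPA and HPTE against E2 to 1 and 2 at 2 h and 10 and 8 at 24 h, and 24 h against 2 h to 11 under E2 and 10 under BPA. The slide as a block left 1 for BPA 24 h, 4 for HPTE 24 h and 4 for BPA against E2 at 2 h. Under this setting and under the spike-in scaling, the BPA 24 h call left was that of Slc1a2, which is no support. Leaving out the slide scanned on the later day left 2 and 7 for BPA and HPTE at 24 h. A fit to the groups compared left 9 for E2 2 h and 1 for BPA against E2 at 2 h. Leaving out E2 2 h replicates 2 and 3 together, chosen after seeing the data, left 8 for E2 2 h, and 6 and 5 for BPA and HPTE against E2. HPTE against BPA at 24 h rose from 0 to 1 with quantile normalization and to 2 with normexp. The cause was not tested, except that dropping arrays or groups leaves fewer samples.

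With each array left out in turn, the counts ranged from 9 to 15 (E2), 18 to 24 (BPA) and 22 to 24 (HPTE) at 2 h, and from 22 to 28, 1 to 3 and 6 to 10 at 24 h. Calls that held without every array numbered 8, 18 and 18 at 2 h and 19, 1 and 4 at 24 h. Slc1a2, whose fall follows from the filter and is no support, is in each of these counts. It is the only call that held at BPA 24 h. BPA and HPTE against E2 gave 8 to 12 and 6 to 11 at 2 h and 17 to 24 and 16 to 21 at 24 h, HPTE against BPA 0 to 2 at 2 h, and 24 h against 2 h 14 to 19, 16 to 24 and 21 to 25 for E2, BPA and HPTE.

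Replicate numbers did not pair the arrays (median r of deviations -0.05, 4 of 20 arrays closest to their own number), whereas arrays of 1 slide had a median r of 0.107, against -0.03 across slides. With a replicate block the counts were 15, 21 and 27 at 2 h and 28, 3 and 11 at 24 h, and Slc3a2 was called at E2 2 h (0.24, adjusted p = 0.047). The median change of all probes against vehicle depended on the scaling. It was -0.36 at HPTE 24 h with the spike-in probes, beside -0.06 with the main scaling. At E2 2 h it was -0.29 without scaling, beside -0.06. The 8 transporters not tested, and Slc1a2 outside vehicle, lie at the detection limit. Slc7a1, Slc36a3, Slc6a3, Slc6a11 and Slc7a14 were also not above background on every array, so that they were never called says little.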
